A study of Mus musculus with 28 samples.

Results

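The comparison described here set DKO tumors of Experiment B against WT tumors of Experiment A. The tumors grew from 3LL cells, a Lewis lung carcinoma line, and DKO denotes cells edited in both Keap1 and Nrf2. The columns of the deposited table were chosen by genotype and experiment, which gave 8 of the 28 libraries, 4 DKO tumors and 4 WT tumors. All 18509 of the table's 43143 rows that carry a gene symbol were considered, and 15503 of them passed the filter on low values and were tested. Hosts were albino C57BL/6 male mice of 6 weeks, which received cells subcutaneously in both flanks, and tumors were taken after 10 days. WT (wild-type) tumors grew on the left in Experiment A, opposite KEAP1-KO (Keap1-KO) tumors on the right of the same mice. DKO (Keap1-Nrf2-DKO) tumors grew on the right in Experiment B, opposite KEAP1-KO tumors on the left, so every host of either group also bore a KEAP1-KO tumor. KEAP1-KO cells were a single-colony clone cut in exon 2 of Keap1, and DKO cells were a single-colony clone made from it by cutting exon 5 of Nrf2, the gene listed as Nfe2l2. Genotype, clone, flank and experiment therefore change together between DKO and WT tumors, and they cannot be told apart from these 8 libraries alone. The 4 KEAP1-KO tumors of each experiment served as a control for shifts of flank and experiment, as their clone did not change. The tumor on the opposite flank did change for them, from WT in A to DKO in B. An effect of the opposite tumor was not tested.

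KEAP1 is the adaptor that delivers the transcription factor NRF2 to a ubiquitin ligase, so that NRF2 is degraded in unstressed cells. Electrophiles and oxidants, or loss of KEAP1, let NRF2 accumulate, pair with small MAF proteins and bind antioxidant response elements. Its targets make glutathione, thioredoxin and NADPH and conjugate or reduce foreign compounds. Activating mutations of the pathway are frequent in lung cancer. Cells without both proteins lack the sensor and the factor, whereas WT cells retain regulated NRF2.

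All levels below are the deposited values, log2(normalized count + 4), on which a row without reads has the value 2, and differences are DKO minus WT on that scale. Depth was 4222365 to 5806542 reads in the DKO tumors and 5016062 to 6048425 in the WT tumors. The Keap1 gene row lay at 8.78, 8.98, 8.84 and 8.93 in the WT tumors. It lay at 7.25, 7.46, 7.51 and 7.24 in the DKO tumors. The groups were far apart, with a difference of −1.52 ± 0.13 (SE, adjusted p = 1.98e-06 in limma), and its shift between the KEAP1-KO tumors of the 2 experiments was 0.00. The row listed for Nfe2l2 is a processed transcript at 6.01 ± 0.22 (SD, n = 4) in WT and 5.59 ± 0.09 in DKO tumors, and its difference of −0.42 did not pass the threshold (adjusted p = 0.066). An RNA level cannot show a small insertion or deletion, so this row does not check the Nrf2 edit. Many rows are single transcripts and not gene totals (10089 of the 18509), and 4187 of those are retained introns. The kind of row is named for the genes described.

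DKO and WT tumors differed in many genes. At an adjusted p of 0.05 in limma, 2492 of 15503 rows were called (16.1%), 1045 higher in DKO (6.74%) and 1447 lower (9.33%). Of these, 658 differed by more than 1 on the log2 scale, 325 higher and 333 lower. The split leans on the scaling, because quantile normalization gave 1356 higher and 1227 lower. The DKO and WT values did not overlap in 3454 rows (22.3%), among them 2338 of the called ones.

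The KEAP1-KO tumors changed far less between experiments. Only 51 rows were called for Experiment B against A (0.329%), 49 higher and 2 lower, and their values did not overlap in 822 rows (5.3%). At an unadjusted p under 0.05 there were 1434 rows. The number called was 0 without KEAP1-KO tumor 1 of A or without KEAP1-KO tumor 4 of B. The absolute difference had a median of 0.304 for DKO against WT and 0.176 for the KEAP1-KO tumors. Its 95th percentile was 1.18 and 0.884, and 1208 and 555 rows lay beyond 1. The KEAP1-KO shift was more than 50% as large as the DKO minus WT difference, in either direction, in 217 of the called rows (8.71%). Being called favours a large DKO minus WT difference, which lowers this share. The share over all rows was not computed.

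The 2 shifts between KEAP1-KO tumors and between DKO and WT tumors cross the flanks in opposite directions. Subtracting the KEAP1-KO shift removes the experiment and counts the flank double. Adding it removes the flank and counts the experiment double. Both hold only if effects add on the log2 scale and the change of opposite tumor in the KEAP1-KO groups has no effect. After subtraction 1329 rows were called (8.57%), and after addition 1143 (7.37%). A total of 608 rows were called with one sign in all of these forms (3.92%), 240 higher and 368 lower in DKO tumors. These combined tests have larger errors than the direct one, and neither removes a difference between clones.

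**Figure D1:**
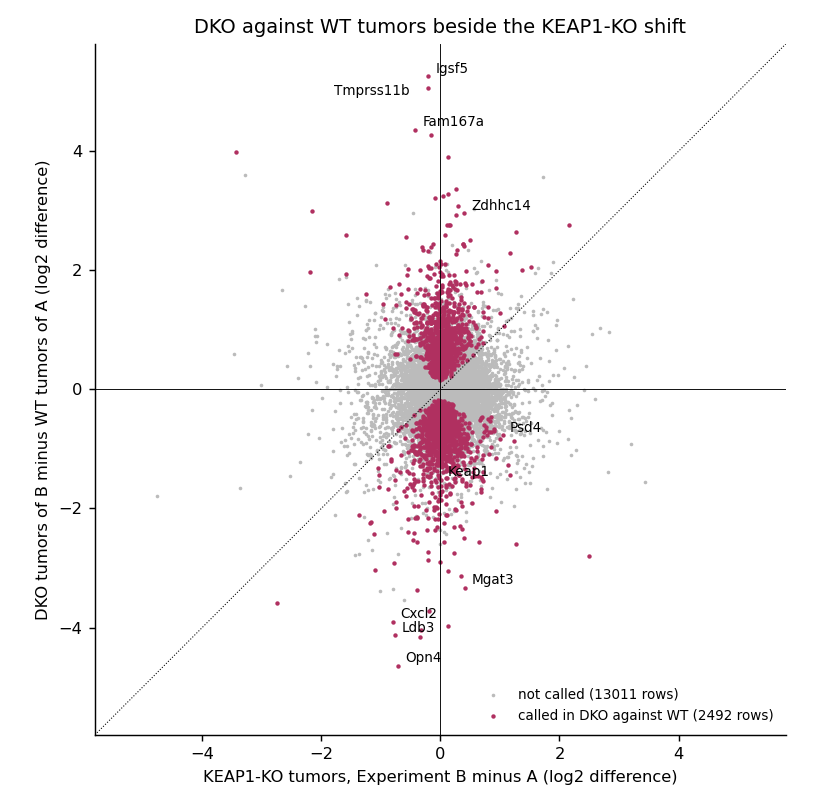
Each point is a row with a symbol, with the log2 difference between the KEAP1-KO tumors of Experiments B and A on the horizontal axis and that between DKO and WT tumors on the vertical axis; the dotted line marks equal values. The 2492 called rows (red) spread along the vertical axis, for example Ldb3 at −4.13 and Igsf5 at 5.26, while the KEAP1-KO shifts of these examples were −0.77 and −0.20.

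Of the 51 rows called for the KEAP1-KO shift, 8 were also called for DKO against WT, where 16.1% of all rows were, and all 8 moved in opposite directions. None of the 51 calls was made without KEAP1-KO tumor 1 of A or tumor 4 of B, or with the replicate number as a fixed block. Psd4, Mest, Ms4a4a, Ptprc, Fcgr2b, Tlr13, Lcp2 and Tgfbi were named because of this count, after their values were seen. Mest, an imprinted gene, was at 7.63 ± 0.12 in WT and 6.96 ± 0.30 in DKO tumors (−0.67, adjusted p = 0.0183), whereas it was 0.90 higher in the KEAP1-KO tumors of B than in those of A (adjusted p = 0.049). Fcgr2b, the inhibitory Fc receptor, differed by −0.46 (adjusted p = 0.0316) against a KEAP1-KO shift of 0.69. Tlr13, an endosomal sensor of bacterial RNA, differed by −0.46 (adjusted p = 0.0281) against 0.85. Each of these 3 calls ended when some single tumors were left out, with adjusted p up to 0.0618, 0.0971 and 0.0924.

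NRF2 targets that defend against oxidants were the first group examined, since NRF2 is the protein that DKO cells lack. Of 13 tested antioxidant and glutathione genes, 8 were lower in DKO tumors and 1 higher, beside 9.33% and 6.74% of all rows. Their median difference was −0.87, beside −0.03 over all 15503 rows, and their median shift between the KEAP1-KO tumors was −0.18. For scale, the same 13 genes had a median of 1.54 for KEAP1-KO minus WT within Experiment A, a comparison that shares the WT tumors. In the promoters of 3 of the genes that fell, the letters of the antioxidant response element core stand in capitals below. The core was searched as TGACNNNGC on both strands of the 300 bases around each RefSeq start (250 before, 50 after, build GRCm38.p6). Of 32851 such promoters, 4071 (12.4%) hold it. Of the 14 NRF2 target and NADPH genes that were lower in DKO tumors, 10 had an entry with 15 promoters in all, of which 4 (26.7%), each of another gene, held the core. A match describes letters only and is not a binding site. Gclm lies at chr3:122245307-122245606 (plus strand), G6pdx at chrX:74428831-74429130 (minus strand) and Txnrd1 at chr10:82858956-82859255 (plus strand), and each sequence runs 5′ to 3′ along the gene.
Gclm: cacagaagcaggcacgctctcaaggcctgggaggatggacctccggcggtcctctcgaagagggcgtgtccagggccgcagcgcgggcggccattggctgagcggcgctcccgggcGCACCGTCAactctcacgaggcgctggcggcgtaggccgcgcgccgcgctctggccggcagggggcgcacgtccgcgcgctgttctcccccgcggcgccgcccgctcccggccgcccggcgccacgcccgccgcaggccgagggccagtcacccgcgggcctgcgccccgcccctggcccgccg
G6pdx: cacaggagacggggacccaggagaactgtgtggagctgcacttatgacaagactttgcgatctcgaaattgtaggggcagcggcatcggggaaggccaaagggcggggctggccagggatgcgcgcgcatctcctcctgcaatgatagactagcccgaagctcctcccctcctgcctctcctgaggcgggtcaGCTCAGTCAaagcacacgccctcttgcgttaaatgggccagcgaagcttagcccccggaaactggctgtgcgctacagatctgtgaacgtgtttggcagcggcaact
Txnrd1: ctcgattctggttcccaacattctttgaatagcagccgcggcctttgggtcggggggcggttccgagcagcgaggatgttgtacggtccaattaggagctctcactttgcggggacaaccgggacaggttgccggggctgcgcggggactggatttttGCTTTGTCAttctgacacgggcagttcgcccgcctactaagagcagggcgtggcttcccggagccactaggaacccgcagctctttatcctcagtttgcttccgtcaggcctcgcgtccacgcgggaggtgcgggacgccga

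The genes named next, for glutathione synthesis, cystine import and glutathione reduction, were among the lower antioxidant and glutathione genes. Gclc, the catalytic subunit of the enzyme that limits glutathione synthesis, was at 8.76, 8.59, 8.60 and 8.98 in WT tumors (processed transcript). It was at 7.60, 7.85, 7.71 and 7.58 in DKO tumors. No DKO tumor reached the lowest WT tumor, and the difference was −1.05 ± 0.11 (adjusted p = 1.71e-05). Gclm, the modifier subunit whose promoter is printed above, was at 5.32, 5.74, 5.31 and 5.69 in WT tumors and 4.63, 2.0, 4.15 and 4.21 in DKO tumors (processed transcript). One DKO tumor had no read, and the difference of −1.77 ± 0.40 was called (adjusted p = 0.00837), although not with a pseudocount of 0.4 or with only the 2 groups in the fit. Summing the rows of the gene gave −1.46 (adjusted p = 8.41e-08). Slc7a11, the cystine importer, was at 7.66, 6.98, 7.57 and 8.41 in WT tumors and 5.37, 5.74, 5.37 and 5.99 in DKO tumors (retained intron). Its difference was −2.04 ± 0.36 (adjusted p = 0.00146), the largest decrease of the 13, beside a KEAP1-KO shift of −0.94. Glutathione reductase (Gsr, processed transcript) fell by 0.97 (adjusted p = 2.11e-06).

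Thioredoxin and its reductase fell with little scatter. Txn1, the gene of thioredoxin itself, was at 11.18, 11.33, 11.41 and 11.53 in WT tumors and 10.07, 10.14, 10.22 and 9.99 in DKO tumors. The gap was many times the spread within a group (−1.26 ± 0.07, adjusted p = 4.38e-08), and Txn1 was also called lower after subtracting (−1.21) and adding (−1.32) the KEAP1-KO shift. Txnrd1, thioredoxin reductase, was at 11.33 ± 0.08 in WT and 10.46 ± 0.10 in DKO tumors (retained intron, −0.87, adjusted p = 4.16e-07). Fth1, the ferritin heavy chain that stores iron, fell by 0.82 (adjusted p = 0.000142). Hmox1, the heme-degrading enzyme, was at 10.62, 9.95, 10.52 and 11.12 in WT tumors and 9.02, 9.48, 8.98 and 9.86 in DKO tumors (retained intron). It fell by 1.21 (adjusted p = 0.00357), with its highest value in WT tumor 4. Srxn1, which repairs oxidized peroxiredoxins, was at 10.17 ± 0.24 and 9.92 ± 0.09, a difference that did not pass (adjusted p = 0.216).

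Osgin1 went the other way. This oxidative stress gene was at 6.57, 6.95, 6.62 and 6.57 in WT tumors and 7.46, 7.19, 7.17 and 8.01 in DKO tumors (processed transcript). All DKO tumors lay above all WT tumors (0.78 ± 0.18, adjusted p = 0.0117).

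Of 18 detoxification targets tested, 3 were lower, beside 9.33% of all rows, and none higher, and their median difference was −0.01, although the same genes had a median of 2.24 for KEAP1-KO minus WT within Experiment A. Gstm1, a glutathione S-transferase, was at 5.96, 6.26, 6.11 and 6.13 in WT tumors and 4.63, 4.36, 4.50 and 5.15 in DKO tumors (processed transcript). Its groups stood clearly apart (−1.45 ± 0.14, adjusted p = 7.96e-06). Nqo1, the quinone reductase that is a classic NRF2 readout, was at 6.84, 6.92, 6.60 and 7.06 in WT tumors and 6.17, 6.06, 6.25 and 5.25 in DKO tumors. It fell by 0.92 (adjusted p = 0.00307), with DKO tumor 4 lowest. Both groups were far below the KEAP1-KO tumors, where Nqo1 was at 12.40 ± 0.11 in A and 12.23 ± 0.22 in B. Gsta4 was near the floor of the scale (3.15 ± 0.17 and 2.56 ± 0.24), and its call (adjusted p = 0.0388) ended in 6 of 8 fits with 1 tumor left out, with adjusted p up to 0.105.

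Among 6 genes of NADPH supply and the pentose phosphate pathway, 3 were lower, beside 9.33% of all rows, with a median difference of −0.71 (−0.47 without WT tumor 3 and −0.38 without WT tumor 4). G6pdx, the entry enzyme of the pathway, was at 9.998, 10.11, 10.09 and 10.23 in WT tumors and 8.92, 9.04, 9.18 and 8.85 in DKO tumors (protein-coding transcript). The difference of −1.11 ± 0.09 (adjusted p = 9.21e-07) stayed at −1.10 and −1.12 after subtracting and adding the KEAP1-KO shift. Pgd, the next dehydrogenase, fell by 0.61 (retained intron, adjusted p = 6.23e-05), and transketolase (Tkt, retained intron) by 0.80 (adjusted p = 0.00255). Taldo1, transaldolase, was at 9.28 ± 0.11 and 9.21 ± 0.09, and its interval for the difference was −0.23 to 0.10 (retained intron, adjusted p = 0.673).

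Of 10 tested regulators and partners of KEAP1 and NRF2, 1 was called, Bach1, beside 16.1% of all rows. Bach1 encodes a repressor that competes with NRF2 at its elements, and its retained-intron row was at 6.80, 6.38, 6.63 and 6.58 in WT tumors. It was at 7.37, 7.45, 7.46 and 7.53 in DKO tumors, above every WT tumor (0.86 ± 0.13, adjusted p = 0.000586). The KEAP1-KO tumors of both experiments had values like the DKO tumors, 7.52 ± 0.24 and 7.41 ± 0.24. Of 3 factors that the study singled out in cultured cells, Il7, a lymphocyte survival cytokine, was at 2.92, 2.78, 2.0 and 2.0 in WT tumors and 3.79, 3.73, 3.78 and 2.89 in DKO tumors. These low groups overlapped at their edge, and the difference was called (1.12 ± 0.25, adjusted p = 0.00892), whereas the KEAP1-KO tumors were at 6.79 ± 0.24 and 6.85 ± 0.20. Serpinb9e and Slpi, both protease inhibitors, did not pass (0.02 and −0.65, adjusted p = 0.988 and 0.293).

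**Figure D2:**
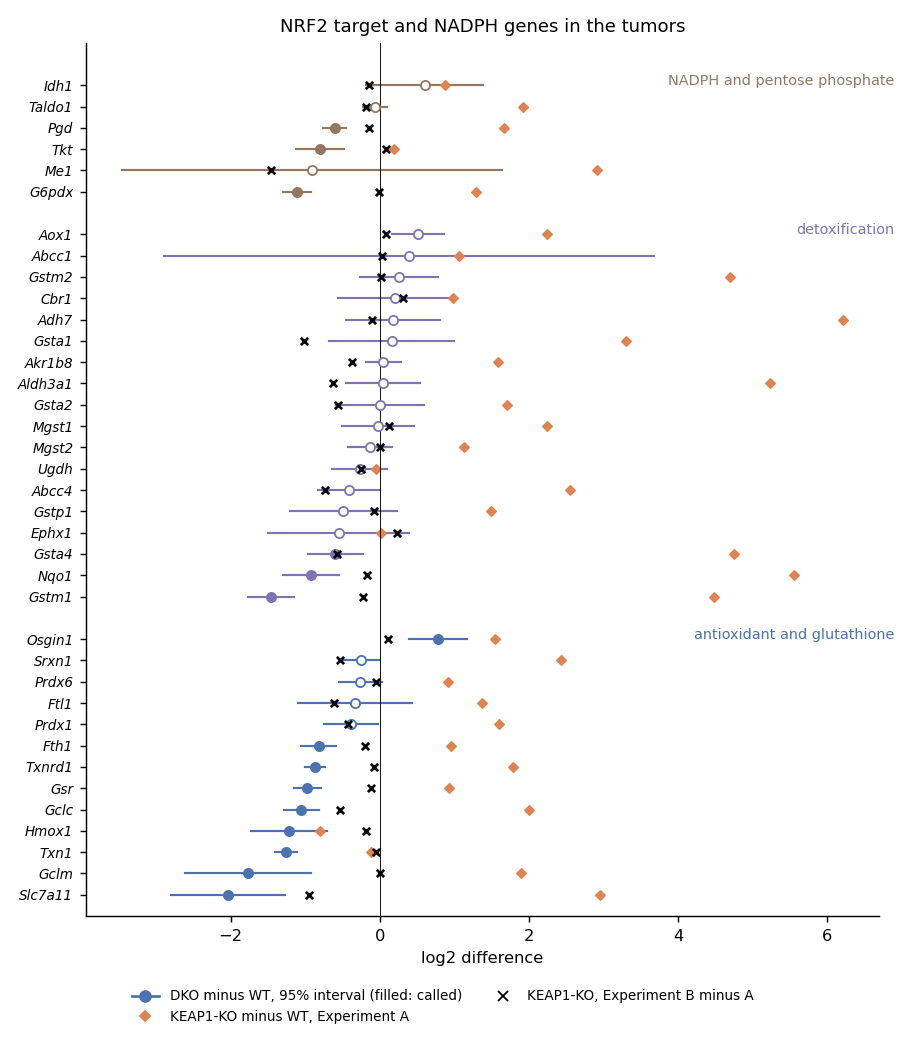
Log2 differences of the tested NRF2 target and NADPH genes: circles give DKO minus WT tumors with the 95% interval (filled where called), diamonds KEAP1-KO minus WT within Experiment A, and crosses the KEAP1-KO shift between experiments. Most circles of the antioxidant group lie left of 0 (median −0.87) while most diamonds lie right of 0 (median 1.54), and most crosses lie within 1 of 0.

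The highest rows named here were picked from calls in which every DKO tumor lay above every WT tumor. Igsf5, a junctional adhesion protein of the immunoglobulin superfamily, had the highest difference that was chosen by the naming rule. Its gene row was at 2.0, 2.0, 2.0 and 2.89 in WT tumors. It was at 7.69, 6.77, 7.39 and 8.06 in DKO tumors, a mean of 184 normalized counts beside 0.849. A single WT tumor had any reads, and the difference was 5.26 ± 0.41 (adjusted p = 7.78e-07). Tmprss11b, a transmembrane serine protease of squamous epithelia, was at 4.33, 4.27, 4.75 and 4.56 in WT tumors and 9.46, 10.19, 8.87 and 9.66 in DKO tumors. The groups were more than 4 log2 units apart at their closest, and the difference was 5.07 ± 0.29 (adjusted p = 4.78e-08). Neither gene was raised as far in the KEAP1-KO tumors, with means of 2.82 and 2.62 for Igsf5 and 5.57 and 5.36 for Tmprss11b in A and B.

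Other rows were already high in the KEAP1-KO clone from which DKO cells were made. Dtna, dystrobrevin of the dystrophin complex, was at 2.57 ± 0.24 in WT and 6.84 ± 0.19 in DKO tumors (processed transcript, 4.27 ± 0.17, adjusted p = 1.8e-09). Its KEAP1-KO tumors were at 6.73 ± 0.34 and 6.58 ± 0.07. Map7d2, a microtubule-associated protein, had no reads in any of the 4 WT tumors (2.0) and was at 5.82, 5.85, 6.03 and 5.89 in DKO tumors (protein-coding transcript, adjusted p = 4.38e-08). The KEAP1-KO tumors were at 5.75 ± 0.36 and 5.88 ± 0.48. Zdhhc14, a palmitoyltransferase, showed yet another order, lowest in KEAP1-KO tumors (3.27 ± 0.14 and 3.68 ± 0.18), at 4.63 ± 0.29 in WT and at 7.58 ± 0.08 in DKO tumors (2.95 ± 0.17, adjusted p = 4.38e-08). Fam167a (4.36) and the engulfment receptor Megf10 (3.24) were also raised, with KEAP1-KO tumors in between. Calls for the transcript rows of Rapgef3 and Thap6, also among the 12 highest, ended without 1 of several single tumors, with adjusted p up to 0.0635 and 0.0808.

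Several of the lowest rows had few or no reads in DKO tumors. Opn4, the gene of the light-sensing pigment melanopsin, was at 6.67, 6.73, 6.56 and 6.62 in WT tumors and had no reads in any of the 4 DKO tumors (2.0; processed transcript, adjusted p = 1.8e-09). The KEAP1-KO tumors lay between, at 5.42 ± 0.38 and 4.72 ± 0.29. Ldb3, a protein of muscle Z-discs, was at 7.22, 7.35, 7.24 and 7.36 in WT tumors and 3.07, 3.49, 3.60 and 2.51 in DKO tumors. Its difference was −4.13 ± 0.26 (adjusted p = 1.12e-07), and its KEAP1-KO tumors too lay between (5.75 ± 0.22 and 4.98 ± 0.56). Mfap3l, a membrane protein, was at 8.86, 8.71, 9.48 and 9.87 in WT tumors and 4.92, 5.53, 4.86 and 5.01 in DKO tumors. WT tumors 3 and 4 were the highest of the 8, and the difference was −4.15 ± 0.26 (adjusted p = 8.69e-08), while the KEAP1-KO tumors exceeded both groups (11.29 ± 0.48 and 10.95 ± 0.22).

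Ksr2, a scaffold of the RAF, MEK and ERK kinases, was at 7.38, 7.62, 7.78 and 7.70 in WT tumors and 4.87, 4.49, 4.39 and 4.51 in DKO tumors. The groups did not come near each other (−3.05 ± 0.22, adjusted p = 3.58e-07), and the KEAP1-KO tumors were lower still (3.10 ± 0.36 and 3.23 ± 0.38). Fam131b (−4.04), the glycosyltransferase Mgat3 (−3.33) and the calcium/calmodulin-dependent kinase Pnck (−3.13) were also low in the KEAP1-KO tumors of A and B, at 3.30 and 2.98, 2.81 and 3.22, and 2.61 and 2.95, beside 2.52, 2.80 and 2.14 in DKO tumors. F3, tissue factor, which starts blood clotting, was at 7.97, 7.19, 8.12 and 8.78 in WT tumors and 3.40, 4.74, 4.69 and 4.34 in DKO tumors (retained intron). It was low in the DKO tumors alone (−3.72 ± 0.30, adjusted p = 8.71e-07), since the KEAP1-KO tumors had 7.40 ± 0.21 and 7.21 ± 0.08. Dlg3, a synaptic scaffold protein, was the exception among the 12 lowest: its KEAP1-KO shift was −2.73 (adjusted p = 0.07), and the difference of −3.59 shrank to −0.86 (adjusted p = 0.63) once that shift was subtracted (processed transcript).

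**Figure D3:**
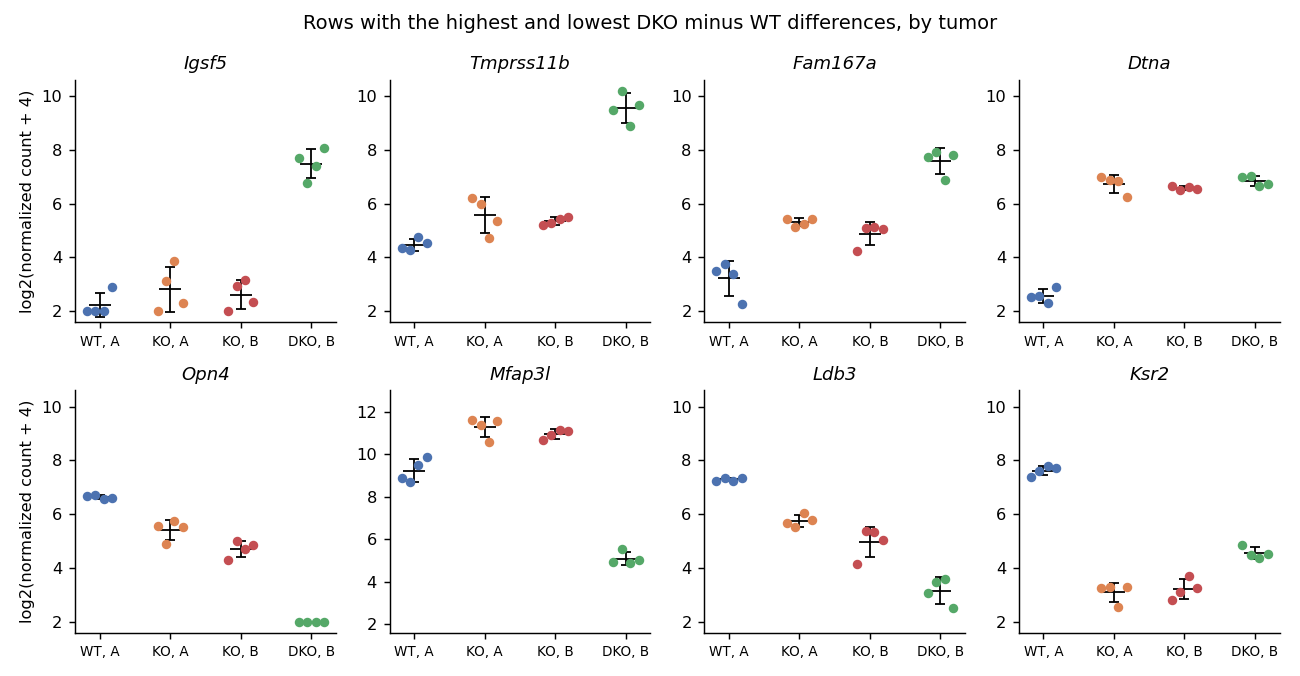
Levels in each tumor, log2(normalized count + 4), for 4 rows among the highest and 4 among the lowest DKO minus WT differences; points are tumors, horizontal marks are means and bars are SD (n = 4). These rows were chosen for groups that do not overlap, and the KEAP1-KO tumors of A and B lie close to each other but at a different place for each gene, beside DKO for Dtna, beside WT for Igsf5 and between for Ldb3.

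The clustered protocadherins, adhesion proteins encoded in tandem arrays with alternative first exons, were raised together. They were noticed after the values were seen. Of 32 tested (22 gamma, 10 beta), 28 were called higher in DKO tumors and 0 lower, against 6.74% of all rows higher, and 22 were called in all combined forms. The median difference over the 32 was 1.19, with a range of 0.57 to 2.76, beside a median KEAP1-KO shift of 0.12. Pcdhga2 was at 4.05, 4.47, 4.29 and 2.28 in WT tumors and 6.74, 6.29, 6.49 and 6.60 in DKO tumors. WT tumor 4 was lowest, and the difference was 2.76 ± 0.35 (adjusted p = 8.67e-05). Pcdhga1 was at 4.44 ± 0.59 and 6.84 ± 0.17 (2.41, adjusted p = 1.29e-05). Pcdhgb1, the most even of those named, was at 8.73, 8.55, 8.69 and 8.82 in WT tumors and 10.32, 10.08, 10.18 and 10.36 in DKO tumors (processed transcript). Its difference was 1.54 ± 0.09 (adjusted p = 5.08e-08). Gamma members share their last exons, so their rows are not independent and reads may have been divided among them; the beta members do not share these exons, and Pcdhb16 (2.28) and Pcdhb18 (1.90) were called as well. In cultured cells 25 of 31 tested were higher in DKO and 0 lower, beside 13% and 13.2% of all cell rows, with a median of 0.93.

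Cultured cells of the same clones carry no host tissue and share no library with the tumors. There, 3518 of 13445 rows were called for DKO against WT (26.2%), 1744 higher in DKO (13%) and 1774 lower (13.2%). Of 12821 rows tested in both settings, 2340 were called in tumors and 3447 in cells. The 2 lists shared 1279 rows with the same direction, which is 54.7% of the tumor list and 37.1% of the cell list, 493 higher and 786 lower. A further 92 were called in opposite directions, and 969 were called in the tumors and not in the cells. Of 591 rows called in all combined forms and tested in cells, 459 (77.7%) were called there in the same direction. The clones and their culture are common to both settings, so the shared rows are not independent of the clone.

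Several of the extreme rows differed in the same direction in culture. Zdhhc14 differed by 5.22 in cells and 2.95 in tumors, and Igsf5 by 3.95 and 5.26. Ccbe1, a secreted protein of lymphatic growth, was at 10.02 ± 0.30 in WT and 11.46 ± 0.15 in DKO tumors (retained intron, 1.44, adjusted p = 3.72e-05) and differed by 4.45 in cells. Elovl7, a fatty acid elongase, was at 4.40, 4.89, 4.70 and 5.0 in WT tumors. It had no reads in any DKO tumor or DKO cell library (2.0, transcript marked for nonsense-mediated decay, adjusted p = 8.67e-07). This row did not pass the filter in any fit that left out a WT tumor. It was thus tested only through the group where it is high, and its p-value is no independent support. Pax5, the master factor of B cells, was at 4.51, 5.15, 4.64 and 3.74 in WT tumors and 6.76, 6.80, 7.21 and 6.66 in DKO tumors (2.34 ± 0.21, adjusted p = 3.33e-06). It cannot be read as a marker of B cells here, since it differed by 3.37 in the cell libraries and was at 6.87 ± 0.07 and 7.15 ± 0.09 in the KEAP1-KO tumors.

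Some genes moved one way in tumors and the other way in culture. Adamts14, a procollagen-cutting protease, was at 10.65, 10.86, 11.07 and 10.90 in WT tumors and 10.13, 10.29, 10.14 and 10.37 in DKO tumors. It fell by 0.63 (adjusted p = 0.000668), whereas it was 1.62 higher in DKO cells. Hmox1 was 0.66 higher in DKO cells, against −1.21 in tumors. Ptgs2, cyclooxygenase 2, which makes prostaglandins, was at 10.02, 9.31, 10.30 and 11.43 in WT tumors and 8.70, 8.99, 8.72 and 9.62 in DKO tumors (protein-coding transcript). These groups overlapped, the difference of −1.26 was called (adjusted p = 0.0304) only with certain tumors present (0.00643 to 0.0851 with 1 left out), and in cells Ptgs2 was 1.19 higher in DKO. The contrast between settings was not tested as such.

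**Figure D4:**
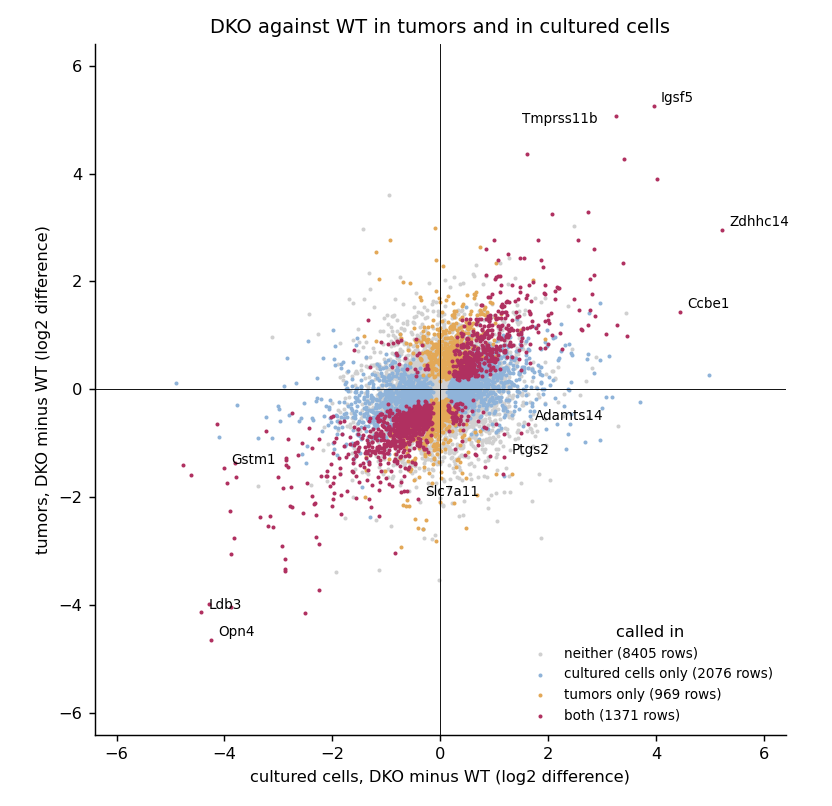
Log2 differences, DKO minus WT, of each row tested in both settings, in cultured cells (horizontal) and in tumors (vertical), coloured by where the row was called. Among the 1371 rows called in both, 1279 lie in the quadrants of equal direction, with Zdhhc14, Igsf5 and Tmprss11b at the top right and Opn4 and Ldb3 at the bottom left, and 92 lie in the other quadrants.

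Host cells enter the tumors, and a bulk library cannot separate fewer cells of a type from less RNA per cell. Lists of host cell markers differed in how many members were called. None of 11 endothelial genes was called (median −0.28), none of 3 T cell genes (−0.77), none of 4 NK cell genes (−0.73) and none of 6 red blood cell genes (−1.06), where 16.1% of all rows were called. Without DKO tumor 4, 4 of the 6 red blood cell genes were called lower (median −1.34). Without WT tumor 2, 2 endothelial genes were called lower, and 1 NK cell gene was without WT tumor 1 or DKO tumor 3. The mean level of the 11 endothelial genes was 6.45 to 6.69 in WT tumors and 6.31 to 6.39 in DKO tumors, with no overlap, and 6.29 to 6.75 and 6.61 to 6.87 in the KEAP1-KO tumors of A and B. Cdh5, the cadherin of vessel walls, was at 8.81 ± 0.14 in WT and 8.67 ± 0.16 in DKO tumors. Csf1r, the macrophage growth factor receptor, was at 9.79, 9.60, 9.44 and 8.99 in WT tumors and 9.45, 9.25, 9.47 and 8.98 in DKO tumors. These overlapped throughout (−0.17, interval −0.53 to 0.19, adjusted p = 0.619). Of 6 dendritic cell genes 2 were called lower, beside 9.33% of all rows, with a median of −0.14. Flt3, a receptor of dendritic cell development, was at 5.29, 5.43, 5.58 and 4.75 in WT tumors and 3.40, 3.84, 4.50 and 2.71 in DKO tumors (processed transcript, −1.65 ± 0.33, adjusted p = 0.00356). Itgax, which encodes CD11c, was at 8.44, 8.25, 8.17 and 8.26 in WT tumors and 7.74, 7.75, 7.54 and 7.79 in DKO tumors (retained intron, −0.58 ± 0.14, adjusted p = 0.0129). Neither row's groups overlapped. Of the 6 genes 0 were called after subtracting the KEAP1-KO shift and 1 after adding it (8.57% and 7.37% of all rows). Cultured cells carried both rows, Flt3 at 3.66 ± 0.37 in WT and 3.67 ± 0.32 in DKO and Itgax at 6.62 ± 0.13 and 6.73 ± 0.16.

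Of 7 pan-leukocyte genes 1 was called lower, beside 9.33% of all rows. This was Ptprc, which encodes CD45. Its retained-intron row was at 9.01, 8.92, 8.89 and 9.01 in WT tumors and 8.62, 8.44, 8.64 and 8.15 in DKO tumors. The groups did not overlap, but the small difference (−0.49 ± 0.14, adjusted p = 0.0325) lost its call in 6 of 8 fits with 1 tumor left out, with adjusted p up to 0.101. Ptprc was also 0.81 higher in the KEAP1-KO tumors of B than of A (adjusted p = 0.041), and the median shift of the 7 genes was 0.81 there against −0.33 for DKO minus WT (−0.18 without DKO tumor 4). After subtracting that shift 6 of the 7 were called lower, and after adding it 0 were, where 8.57% and 7.37% of all rows were called. Among macrophage markers 1 of 14 was called lower, beside 9.33% of all rows (3 without WT tumor 4, 4 without DKO tumor 3). The number was 7 after subtraction and 0 after addition, with medians of −0.21 for DKO minus WT and 0.76 for the KEAP1-KO shift. The gene called was Mertk, the receptor for engulfing dying cells, at 8.92, 8.81, 8.96 and 9.03 in WT tumors and 7.97, 8.15, 8.10 and 8.32 in DKO tumors (processed transcript). It fell by 0.80 (adjusted p = 2.04e-05), and cultured cells without any host cell carried it at 7.58 ± 0.13 in WT and 7.26 ± 0.10 in DKO.

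Neutrophil genes were lower in DKO tumors. Of 6 tested, 5 were called lower, beside 9.33% of all rows, with a median of −1.55 and a KEAP1-KO shift of −0.81. After subtracting that shift 0 of the 6 were called, beside 8.57% of all rows, and after adding it 3 were, beside 7.37%. Their mean level was 6.10 to 8.08 in WT tumors and 5.07 to 5.45 in DKO tumors, with no overlap. S100a9, a subunit of the neutrophil protein calprotectin, was at 7.87, 6.82, 7.68 and 9.41 in WT tumors and 6.10, 5.99, 5.05 and 5.72 in DKO tumors. WT tumor 4 was highest, and the difference was −2.23 ± 0.50 (adjusted p = 0.00905). Retnlg, a secreted neutrophil protein, was at 5.15, 4.47, 5.13 and 6.98 in WT tumors and 3.24, 3.35, 2.49 and 3.65 in DKO tumors (−2.25 ± 0.44, adjusted p = 0.00356). WT tumor 4 again was highest. The calls for Csf3r (−1.10), Il1r2 (−1.18) and Cxcr2 (−0.88), receptors for granulocyte colony-stimulating factor, interleukin 1 and neutrophil chemokines, each ended without single tumors (adjusted p up to 0.0834, 0.0842 and 0.115). The number of calls in this list was 2 to 6 with 1 tumor left out, and 2 without WT tumor 4.

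Of 20 chemokines tested, 3 were lower, beside 9.33% of all rows, and none higher, with a median of −0.38. Cxcl2 was at 8.12, 6.95, 8.22 and 9.16 in WT tumors and 4.0, 3.61, 4.21 and 5.01 in DKO tumors (retained intron). The gap between the groups was wide (−3.91 ± 0.50, adjusted p = 8.7e-05), and WT tumor 4 was highest. The KEAP1-KO tumors, at 4.34 ± 0.42 and 3.55 ± 1.04, resembled the DKO tumors. Cxcl3, its close relative, was at 5.30 ± 0.74 and 2.92 ± 0.67 (retained intron, −2.39, adjusted p = 0.00151). Ccl7, which attracts monocytes, was at 10.68, 10.21, 11.09 and 11.23 in WT tumors and 8.88, 9.02, 9.18 and 9.22 in DKO tumors. It fell by 1.73 (adjusted p = 5.54e-06), unaltered by the KEAP1-KO shift of 0.00, and lay at 7.97 ± 0.11 in WT and 7.82 ± 0.11 in DKO cells, which did not differ by the test (adjusted p = 0.21). Cxcl1 was at 6.92 ± 0.58 and 6.76 ± 0.21 and was not called (retained intron, −0.16, adjusted p = 0.741).

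Cytokines and growth factors included 5 lower and 1 higher of 15, beside 9.33% and 6.74% of all rows. Without WT tumor 4, DKO tumor 1 or DKO tumor 2, 3 were lower. Il33, an alarmin, was at 5.35, 4.70, 5.44 and 7.11 in WT tumors and 3.24, 2.0, 2.49 and 2.71 in DKO tumors. WT tumor 4 stood above the rest, and the difference was −3.04 ± 0.46 (adjusted p = 0.000403). Vegfa, which drives vessel growth, was at 6.28 ± 0.56 and 4.11 ± 1.5 (retained intron, −2.16, adjusted p = 0.0125), a call not made with a pseudocount of 0.4 or with only the 2 groups in the fit, and at −1.53 for the summed rows of the gene (adjusted p = 0.000355). Il1b (−1.17) and Il15 (−1.02) were called with adjusted p of 0.0234 and 0.0201 and lost without single tumors (up to 0.066 and 0.0682). Lif, which keeps stem cells undifferentiated and acts in cachexia, rose: it was at 4.62, 4.40, 4.42 and 4.84 in WT tumors and 5.88, 5.71, 5.28 and 5.95 in DKO tumors (1.13 ± 0.19, adjusted p = 0.000904).

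Of 10 fibroblast genes 3 were higher and 1 lower, beside 6.74% and 9.33% of all rows. Col3a1, fibrillar collagen III, was at 11.28, 10.75, 9.57 and 9.08 in WT tumors and 12.15, 11.77, 12.54 and 11.93 in DKO tumors (retained intron). WT tumors varied widely, and the difference was 1.93 ± 0.45 (adjusted p = 0.0106). In cells it was 1.65 higher in DKO, so the row is not host-specific. Decorin (Dcn), a collagen-binding proteoglycan, was at 11.26, 11.25, 11.50 and 11.89 in WT tumors and 12.22, 12.23, 12.20 and 12.97 in DKO tumors (retained intron, 0.93 ± 0.21, adjusted p = 0.00794). Pdgfrb, the receptor for platelet-derived growth factor, moved the other way, from 9.21 ± 0.17 in WT to 8.40 ± 0.27 in DKO tumors (−0.82, adjusted p = 0.00239), and by −1.82 in cells. Lum, called at 1.64, lost its call in 6 of 8 fits with 1 tumor left out (adjusted p up to 0.0923).

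Skeletal muscle genes marked 3 of the 4 DKO tumors. Acta1, muscle actin, was at 7.66, 6.36, 7.02 and 3.32 in DKO tumors and 3.48, 3.76, 3.72 and 3.83 in WT tumors. Tumor 4 of the DKO group was at the WT level. Myh1, a fast myosin, was at 6.84, 5.32, 6.48 and 2.0 in DKO tumors and 2.0, 2.31, 2.0 and 2.0 in WT tumors. Of 5 tested muscle genes 3 were called higher (median 1.97), beside 6.74% of all rows, and 4 without DKO tumor 4. Without DKO tumor 1, 2 or 3 only 3 genes were tested, and 0 were called. Myh1 and Atp2a1, both among the called genes, did not pass the filter in those fits. They were thus tested only through the DKO tumors where they are high, so the share called is no independent support. Whether muscle of the flank contributed to these samples was not tested.

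**Figure D5:**
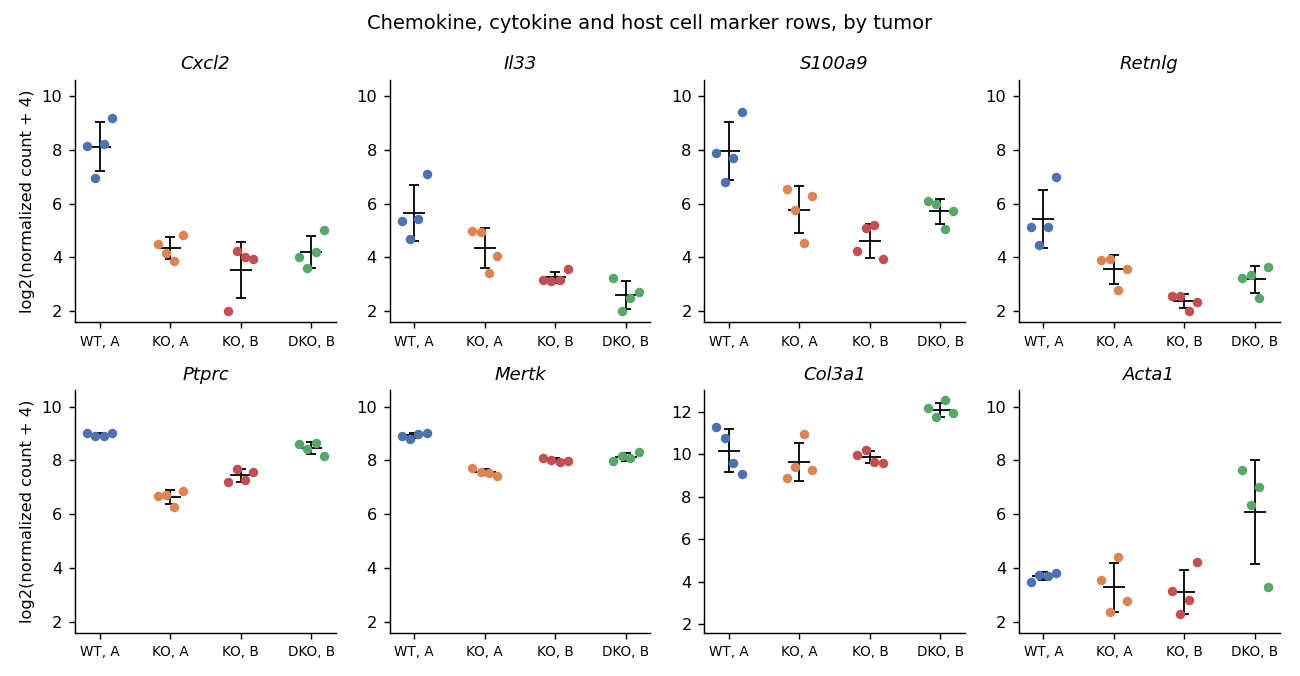
Levels in each tumor, log2(normalized count + 4), of chemokine, cytokine and host marker rows; points are tumors, marks are means and bars are SD (n = 4). Cxcl2, Il33, S100a9 and Retnlg are lower in DKO than in WT tumors with WT tumor 4 highest, Col3a1 is higher, and Acta1 is high in 3 DKO tumors (6.36 to 7.66) and at 3.32 in the fourth.

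Of 31 interferon-stimulated genes 1 was called lower, beside 9.33% of all rows, with a median difference of −0.04, whereas their median for KEAP1-KO minus WT in Experiment A was −2.32. Ifit1, an antiviral RNA-binding protein, was at 7.14, 7.60, 6.07 and 5.93 in WT tumors and 7.18, 6.27, 7.73 and 6.16 in DKO tumors. The groups lay within the same range (0.15, interval −0.73 to 1.03, adjusted p = 0.877), far above the KEAP1-KO tumors at 2.54 ± 0.16 and 2.75 ± 0.59. Gbp2, a guanylate-binding GTPase, was at 8.45 ± 0.46 and 8.59 ± 0.32 (transcript marked for nonsense-mediated decay, interval −0.40 to 0.67). Bst2, tetherin, was the gene called (−0.74, adjusted p = 0.0464), and its groups overlapped and the call ended in 6 of 8 fits with 1 tumor left out (up to 0.138). Among 21 interferon gamma and GBP genes, Irf1 and Gbp8 were called lower, 2 genes beside the same 9.33%. Both calls came from single transcripts, and neither gene was called from its summed rows (−0.32 and −0.87, adjusted p = 0.509 and 0.138).

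Of 14 genes of MHC class I, which presents peptides to T cells, and its loading, 2 were higher and 1 lower, beside 16.1% of all rows called. The call of Nlrc5, the activator of class I genes (0.39, adjusted p = 0.0219), ended without WT tumor 3 or 4 or DKO tumor 2 or 3 (up to 0.0695), and the other gene called higher was Tapbp. B2m, the shared light chain of class I molecules, was at 12.64, 12.81, 12.73 and 12.71 in WT tumors and 12.18, 12.34, 12.53 and 12.40 in DKO tumors. Every DKO tumor was below every WT tumor (−0.36 ± 0.07, adjusted p = 0.00348), and DKO cells were 0.51 below WT cells. Tapbp, the peptide-loading factor tapasin, was at 10.87, 11.06, 10.82 and 10.42 in WT tumors and 11.26, 11.34, 11.81 and 11.38 in DKO tumors (0.65 ± 0.15, adjusted p = 0.00821). Of 7 class II genes, 1 was called lower, beside 9.33% of all rows. This was H2-DMb1, of the class II loading machinery (−0.72, adjusted p = 0.0483), whose call ended in 6 of 8 fits with 1 tumor left out (up to 0.146). The list carried a KEAP1-KO shift with a median of 1.31. After subtracting that shift 4 of the 7 were called, and after adding it 0 were (8.57% and 7.37% of all rows). H2-Ab1, a class II chain, was at 7.60 ± 0.24 and 7.20 ± 0.24 and not called (retained intron, −0.40, adjusted p = 0.198), with a KEAP1-KO shift of 1.31 (adjusted p = 0.014).

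Of 14 proliferation genes 6 were lower, beside 9.33% of all rows, and none higher, with a median of −0.43. Ccnb1, cyclin B1, was at 10.12, 10.25, 10.19 and 9.94 in WT tumors and 9.17, 9.27, 9.26 and 8.68 in DKO tumors (retained intron). DKO tumor 4 was lowest (−1.03 ± 0.17, adjusted p = 0.000733). Bub1, a spindle checkpoint kinase, fell by 0.86 (retained intron, adjusted p = 0.000235) and Pcna, the sliding clamp of DNA replication, by 0.69 (retained intron, adjusted p = 0.00151). In cells 9 of 14 were lower and 2 higher, beside 13.2% and 13% of all rows there. The calls of Cdk1, Birc5 and Aurkb ended without single tumors (adjusted p up to 0.0909, 0.142 and 0.0835), and 3 genes were called lower without WT tumor 1, 2 or 3 or DKO tumor 1 or 4.

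Of 24 cytosolic ribosomal protein genes, 11 were lower, beside 9.33% of all rows, and none higher, with a median of −0.54. Rpl3 (−0.58) and Rplp1 (−0.82) were called, with −0.59 and −0.82 for the summed rows of each gene, as was Rps19 at −1.90 (transcript marked for nonsense-mediated decay), for which the summed rows gave −1.12. In cells 4 of 23 were higher and 4 lower, beside 13% and 13.2% of all rows.

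Glycolysis and hypoxia genes included 2 lower of 18, beside 9.33% of all rows. They were Vegfa and Eno1, the enolase of glycolysis (retained intron, −0.52, adjusted p = 0.000376), and the list's median was −0.53. Without WT tumor 1, or without WT tumor 2, 5 were called lower. Slc2a1, the glucose transporter, was at 11.78, 11.18, 12.10 and 13.08 in WT tumors and 11.57, 12.17, 11.44 and 12.43 in DKO tumors. These overlapped (−0.13, adjusted p = 0.857).

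Genes of the ERK pathway and its feedback were lower in 5 of 11 and higher in 1, beside 9.33% and 6.74% of all rows, with a median of −0.29 that quantile normalization moved to −0.15. Dusp5, a nuclear ERK phosphatase, was at 9.59, 9.31, 9.72 and 10.11 in WT tumors and 8.05, 8.36, 7.96 and 8.52 in DKO tumors. All DKO tumors were lower (−1.46 ± 0.15, adjusted p = 8.31e-06), while the KEAP1-KO tumors stayed at the WT level (9.82 ± 0.10 and 9.65 ± 0.10). Ksr1, the close relative of Ksr2, fell by 0.86 (protein-coding transcript, adjusted p = 0.000354). Ksr2 itself is an ERK scaffold among the lowest rows named above. Lists were chosen with earlier results of these data known, so the counts for this one are no independent support. Spry4, a feedback inhibitor of receptor kinase signalling, rose from 10.58 ± 0.08 to 11.14 ± 0.21 (0.56, adjusted p = 0.000574).

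Epithelial genes moved in both directions. Of 10 tested, 4 were lower and 2 higher, beside 9.33% and 6.74% of all rows. The higher ones were Igsf5 and Tmprss11b, which head the highest rows named above. The list was chosen with earlier results of these data known, so these counts are no independent support. Krt18, a keratin of simple epithelia, was at 7.07, 7.77, 7.65 and 7.18 in WT tumors and 4.43, 5.08, 5.15 and 4.89 in DKO tumors. The gap was wide (−2.53 ± 0.19, adjusted p = 6.56e-07), and its partner Krt8 fell by 0.76 (adjusted p = 0.0019). Ocln, occludin of tight junctions, was at 7.75, 7.69, 7.88 and 7.78 in WT tumors and 6.05, 6.36, 6.44 and 6.26 in DKO tumors (protein-coding transcript, −1.5 ± 0.13, adjusted p = 1.98e-06). Among 10 mesenchymal genes, Snai2, a repressor of epithelial genes, rose from 6.46 ± 0.16 to 7.30 ± 0.21 (0.84, adjusted p = 0.00685). S100a4, a calcium-binding protein of motile cells, fell from 12.85 ± 0.09 to 11.68 ± 0.14 (protein-coding transcript, −1.17, adjusted p = 3.61e-05). All of these had the same direction in cells, with 1.99 for Snai2 and −2.0 for S100a4.

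Of 21 matrix genes 3 were higher and 4 lower, beside 6.74% and 9.33% of all rows. Without WT tumor 1, 5 were higher and 3 lower. Timp2, an inhibitor of matrix proteases, was at 12.35, 12.46, 12.45 and 12.25 in WT tumors and 13.24, 13.29, 13.21 and 13.68 in DKO tumors (protein-coding transcript, 0.98 ± 0.10, adjusted p = 1.02e-05). The lowest DKO tumor was above every WT tumor. Spp1, osteopontin, rose by 1.06 (protein-coding transcript, adjusted p = 0.00257). Mmp13, a collagenase, was at 6.66, 6.73, 6.84 and 7.11 in WT tumors and 5.25, 5.21, 5.45 and 5.62 in DKO tumors. It fell by 1.45 (adjusted p = 0.000149), was near the floor in cells (2.09 ± 0.17 and 2.15 ± 0.18), and was at 4.19 ± 0.45 and 4.77 ± 0.10 in KEAP1-KO tumors. Col6a3 (−1.72, adjusted p = 0.00777) and Col6a2 (−0.68, adjusted p = 0.000343), both chains of collagen VI, were lower (retained introns). Col18a1 was called too (−0.54), but not from the summed rows of the gene (−0.36, adjusted p = 0.132).

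Cholesterol and fatty acid synthesis had 3 higher of 18, beside 6.74% of all rows, and none lower. The median of 0.25 equalled the KEAP1-KO shift of the list (0.25) and was 0.43 without DKO tumor 3. Without WT tumor 1, 2 or 4 or DKO tumor 1, 2 or 4, 2 were higher. Cyp51, a demethylase of sterol synthesis, was at 9.42, 9.69, 9.82 and 9.34 in WT tumors and 10.19, 10.50, 10.32 and 10.20 in DKO tumors (retained intron). It rose by 0.73 (adjusted p = 0.00105) and Insig1, a brake on the sterol sensor, by 0.76 (retained intron, adjusted p = 0.00126). Subtracting the KEAP1-KO shift left 0.36 and 0.41, neither of which passed (adjusted p = 0.3 and 0.25). Genes of ATF4 and serine synthesis were lower in 5 of 14, beside 9.33% of all rows, with a median of −0.35 in tumors and 0.59 in cells. Psat1, an enzyme of serine synthesis, fell by 0.57 (retained intron, adjusted p = 0.000904), and Atf4, the stress factor itself, by 0.62 in tumors (retained intron, adjusted p = 0.00273), with 0.24 in cells. None of 11 immediate early genes was called in tumors (median −0.19), beside 16.1% of all rows. In cells 7 of 8 tested were higher in DKO, beside 13% of all rows.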

How the data were processed

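RNA of tumors and cultured cells was sequenced from rRNA-depleted, strand-specific libraries, and the authors quantified reads with Salmon 1.5.1+galaxy0 against GENCODE mouse transcripts. The study's methods name TPM from Salmon and the iDEP platform, but how the log2 table was made is not given in the sources used here. The deposited table holds log2 values of a normalized count plus 4, read from the values themselves. TPM had been assumed, so the planned limma test was applied to the log2 values. Depths were recovered from the steps of low values.

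Rows that reached 5 normalized counts in 4 or more libraries of a fit entered limma (version 3.58.1, R 4.3.3; lmFit, eBayes with trend), with 16 tumors in 1 fit and 12 cell libraries in another. P-values are two-sided and Benjamini-Hochberg adjusted over all 34215 tumor or 29744 cell rows, including those without a symbol, with a threshold of 0.05. They measure the spread between tumors, and KEAP1-KO and DKO were 1 clone each. On simulated data, DKO against WT tumors recovered 45% of log2 changes of 1 and 84% of changes of 2, and 1.53% of calls were false. For cells the shares were 49% and 77%, and 7.35% of calls were false. Same-number tumors of 1 experiment had correlations of −0.0279 to 0.0316 in their deviations from the group means. Such values cannot tell whether these tumors shared a mouse. Same-number WT and DKO tumors, from different experiments, had −0.027 to 0.0732.

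Named genes are Keap1, Nfe2l2, Ptprc, list members, the 12 highest and 12 lowest called rows whose groups do not overlap and whose sign holds in both combined contrasts (predicted genes left out), the 8 largest in each direction in tumors and cells together, and up to 6 opposite in tumors and cells. Protocadherins and the rows with a called KEAP1-KO shift were added after their values were seen. The genes and lists were chosen with earlier results of these data known. Alternatives were a pseudocount of 0.4, other filters (none, or a mean of 25 normalized counts), quantile normalization, median centring, no trend, a replicate block, library weights, only the groups compared, summed rows of a gene (chosen after seeing the data) and each tumor left out. Promoters are from RefSeq (GRCm38.p6). An extraction label naming liver conflicts with all other labels and was not followed.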

Additional observations from a re-analysis of the deposited data

Results flagged for a closer look

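In 276 groups of 4 tumors examined for the genes named, 1 tumor stood apart from the other 3 in 16 (5.8%), where chance gives about 5%. Among the DKO tumors these were Dlg3 at 4.62 and Fam167a at 6.87 (tumors 2 and 3), and Itgax at 7.54, Bst2 at 8.44 and Ksr1 at 6.44 in tumor 3. Tumor 4 of the DKO group stood apart for Timp2 at 13.68, Dcn at 12.97, Bub1 at 9.10 and Il7 at 2.89. Among the WT tumors, tumor 1 stood apart for Mest at 7.81 and Rps19 at 6.14. Tumor 2 did so for Rapgef3 at 3.13, Osgin1 at 6.95, C1ra at 5.11 and Myh1 at 2.31, and tumor 4 for Igsf5 at 2.89.

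For 8 of the genes named, the DKO and WT samples did not overlap in tumors or in cultured cells and the differences had opposite signs, with calls in both, and the difference between the settings was not tested. The tumor value comes first for Adgra1 (1.29 and −1.34), 2610203C22Rik (0.73 and −1.60), H3f3b (−0.80 and 1.5), Adamts14 (−0.63 and 1.62), Atf4 (−0.62 and 0.24), Slc3a2 (−0.41 and 0.58), Shmt2 (−0.39 and 0.14) and Hmox1 (−1.21 and 0.66). With 1 tumor left out, the tumor call ended in 6 of 8 fits for H3f3b, 5 of 8 for Shmt2 and 2610203C22Rik, and 3 of 8 for Adgra1 (adjusted p up to 0.142, 0.138, 0.0823 and 0.0546). It ended in 0 of 8 for the other 4.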

How the results depend on the processing

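Alternatives were run for the 137 called rows among the genes named, and none of these reversed. Of them, 92 kept their call in every alternative in which they were tested, and some rows did not pass the filter in all of them. The call was lost at least once by 37 with 1 tumor left out (176 of 1075 values). Under another alternative 39 lost it (101 of 1622 values). The number called for DKO against WT tumors was 1958 to 2190 with 1 tumor left out, 3582 with the rows of each gene summed, 2513 with the replicate block as a fixed term and 2496 with the animal as a random replicate block. The KEAP1-KO shift was less stable: 15 called without a filter, 81 with a mean of 25, 5 without a trend, 0 with a fixed replicate block, 92 with summed rows, 4 with only its 2 groups, and 0 to 41 with 1 tumor left out (in A 0, 7 and 31 without tumor 1, 2 and 4, in B 28, 9, 29 and 0 without tumor 1, 2, 3 and 4). After subtracting that shift the number was 792 without a trend, 2186 with summed rows and 988 to 1569 with 1 tumor left out. After adding it these were 735, 1977 and 875 to 1209. Cells gave 3006 to 3201 with 1 library left out. The share of calls that were higher was 41.9%, 52.5% with quantile normalization and 47.4% with median centring. The median of the ERK list moved to −0.15 with quantile normalization. With 1 tumor left out, medians moved by over 1.5 times in 26 of 37 lists and changed sign in 11. Examples are chemokines (−0.18) and ATF4 genes (−0.19) without WT tumor 1, glycolysis (−0.31) and immediate early genes (−0.04) without WT tumor 4, dendritic cells (−0.05) without WT tumor 1, and macrophages (−0.08) and T cells (−0.42) without DKO tumor 4. The causes of these shifts were not tested, except that summing rows tests other quantities. Values near 2 rest on few reads, where differences are understated.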
